A study of Mus musculus with 2 samples.

Results

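The Dyrk and Hipk kinases form a pair of related families of protein kinases, with 5 and 4 genes in the mouse, and they are described here together with Gm47434, an unclassified transcript that lies downstream of Dyrk2. These 10 genes were found by symbol among the 55401 genes measured in embryonic mouse pituitaries at embryonic day E12.5. The kinases were chosen by family name. Gm47434 was chosen because earlier results of these data had shown it in the knockout library only, and Dyrk2 is the gene named in the knockout genotype, so the values of these 2 genes are a description and support nothing further. The series sets 1 polyA-selected, stranded library of wild-type total RNA beside 1 library of the Dyrk2-KO genotype, which the design text writes as Dyrk2-/-. Neither the labels nor the design text state the strain, the construction of the Dyrk2 allele, the sex of the embryos or how many were pooled. By its title, the series concerns the role of primary cilia in cell type choice and blood vessels of the developing pituitary.

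Dyrk kinases phosphorylate serine and threonine in their substrates, but while they are being translated they phosphorylate a tyrosine in their own activation loop, and this step makes them active. Hipk kinases carry the same tyrosine and work mainly in the nucleus, where they act on transcription factors and corepressors. Dyrk2 also serves as a scaffold for an E3 ubiquitin ligase, and in the mouse its loss is known to alter primary cilia and Hedgehog signalling.

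The shared tyrosine can be read in the coding sequences, and it is shown because it is what the 9 kinases have in common. Each line gives the 15 codons around it from the GENCODE M21 transcript with the longest open reading frame, 5′ to 3′, with codons 3 and 5 in capitals.
Dyrk1a: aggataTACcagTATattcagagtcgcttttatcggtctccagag
Dyrk1b: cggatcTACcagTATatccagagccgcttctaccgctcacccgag
Dyrk2: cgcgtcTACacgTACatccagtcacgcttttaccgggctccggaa
Dyrk3: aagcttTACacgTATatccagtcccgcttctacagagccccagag
Dyrk4: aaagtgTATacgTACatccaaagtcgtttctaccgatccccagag
Hipk1: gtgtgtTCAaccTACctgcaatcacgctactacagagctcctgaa
Hipk2: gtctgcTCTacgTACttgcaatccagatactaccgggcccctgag
Hipk3: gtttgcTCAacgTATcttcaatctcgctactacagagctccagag
Hipk4: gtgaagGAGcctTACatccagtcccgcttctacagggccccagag
Codon 5 encoded tyrosine in 9 of 9 kinases. Codon 3 encoded tyrosine in the 5 Dyrk genes, serine in Hipk1, Hipk2 and Hipk3, and glutamate in Hipk4. The closest pair over these 45 bases was Hipk1 and Hipk3, with 37 identical bases, followed by Dyrk1a and Dyrk1b with 36. Identity over the whole stretch did not follow the families throughout. Dyrk3 and Hipk4 came next with 34, while Hipk4 shared 28 with each of Hipk1, Hipk2 and Hipk3. Dyrk2 and Dyrk3 shared 32. In Dyrk2 the stretch lies in exon 3, at chr10:118860182-118860226 on the minus strand of GRCm38.

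The genes are spread over 7 chromosomes and none lies on X or Y. In GRCm38, by GENCODE M21, Dyrk1a (ENSMUSG00000022897) is at chr16:94570010-94695517, Dyrk1b (ENSMUSG00000002409) at chr7:28179469-28187294, Dyrk2 (ENSMUSG00000028630) at chr10:118855603-118870209, Dyrk3 (ENSMUSG00000016526) at chr1:131127455-131138340 and Dyrk4 (ENSMUSG00000030345) at chr6:126876020-126921839. Hipk1 (ENSMUSG00000008730) is at chr3:103739815-103791563, Hipk2 (ENSMUSG00000061436) at chr6:38694390-38876165, Hipk3 (ENSMUSG00000027177) at chr2:104426481-104494446 and Hipk4 (ENSMUSG00000040424) at chr7:27523267-27531175. Gm47434 (ENSMUSG00000112616) is at chr10:118832588-118835106, on the minus strand like Dyrk2. For 10 of 10 genes the exon length in the deposited tables equalled the union of exons in GENCODE M21.

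Levels are given in FPKM, a unit that divides the fragments of a gene by its exon length and by the library total. The wild-type library held 20044944 counted fragments and the knockout library 20115754, so 1 fragment on a 1 kb gene is worth 0.0499 and 0.0497 FPKM. All intervals are exact 95% intervals of counting error. With 1 library per genotype there is no replicate check, no test was made, and the spread between embryos is unknown. The pituitary identity of the samples was visible in both: 9 of 9 markers of the pituitary primordium, among them Pitx1, Lhx3 and Hesx1, passed 1 FPKM, with summed levels of 767 FPKM in wild type and 699 FPKM in the knockout. In such bulk RNA, fewer cells of a type and less RNA per cell cannot be told apart.

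Of the 9 kinases, 7 were above 1 FPKM in at least 1 library, and 6 of these stood between 10 and 18 FPKM in the wild-type library. Dyrk1b, a kinase linked to cell cycle exit and muscle differentiation, was the most abundant in both libraries, at 17.5 FPKM (16.4 to 18.6) in wild type and 16.2 FPKM (15.2 to 17.3) in the knockout. Dyrk1a, the dosage-sensitive kinase whose human gene lies in the region triplicated in Down syndrome, measured 12.6 FPKM (12.1 to 13.2) and 12.8 FPKM (12.3 to 13.4). The intervals of the libraries overlapped for both genes.

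Dyrk2 had 1443 fragments in wild type, or 11.5 FPKM (10.9 to 12.1), and 243 in the knockout, or 1.93 FPKM (1.70 to 2.19). It was 5.97-fold lower in the knockout, and of the 9037 genes that reached 5 FPKM in at least 1 library 13 had a log2 ratio as low, which is 0.144%. Exon 3 makes up 90.6% of the main Dyrk2 transcript. The deposited value is 1 number per gene, so the exons that supplied the remaining 243 fragments were not analysed here. An unclassified transcript on the opposite strand, 4932442E05Rik, covers 328 bases of that exon and was listed at 0 in both libraries.

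Dyrk3, which dissolves stress granules and other condensates, measured 4.19 FPKM (3.70 to 4.73) in wild type and 4.16 FPKM (3.68 to 4.69) in the knockout, the nearest to equality of the Dyrk genes. Dyrk4, known mainly from testis, was near the limit of detection, with 4 fragments in wild type and 2 in the knockout, or 0.08 and 0.04 FPKM. With so few fragments a difference was not detectable at this depth, since the interval of the ratio ran from 0.0451 to 3.48.

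**Figure D1:**
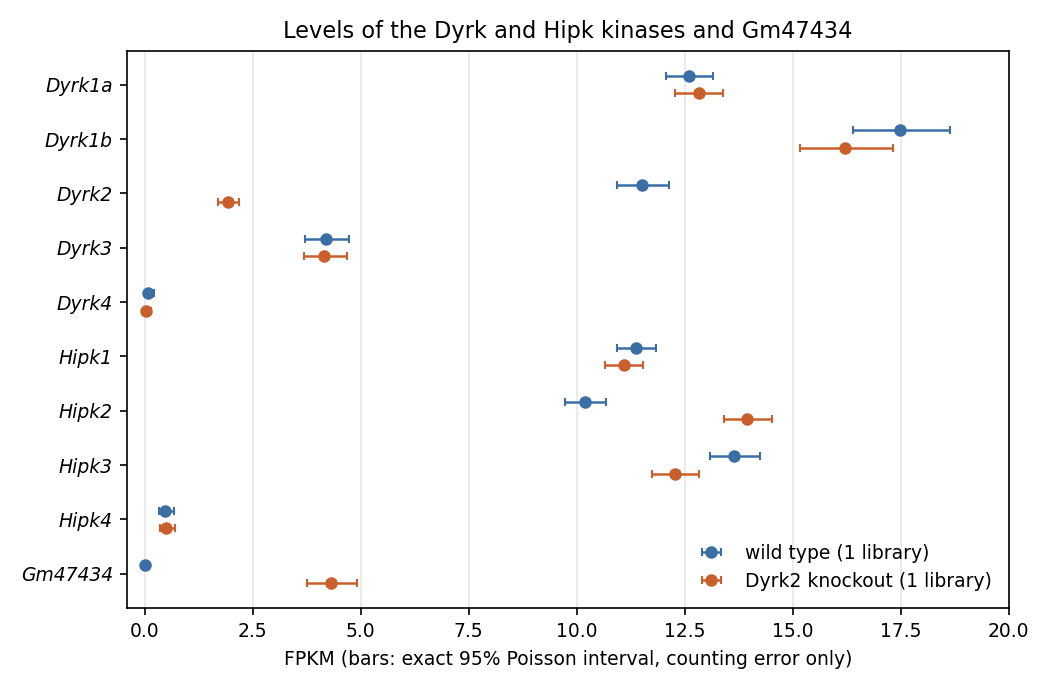
FPKM of the 10 genes in the wild-type library (blue) and the Dyrk2 knockout library (orange), 1 library each, with exact 95% Poisson intervals that cover counting error only. Intervals stand clear of each other for Dyrk2 (11.5 and 1.93 FPKM), Hipk2 (10.2 and 14.0 FPKM), Hipk3 (13.7 and 12.3 FPKM) and Gm47434 (0 and 4.30 FPKM).

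Among the Hipk genes, Hipk2 was higher and Hipk3 slightly lower in the knockout library, and Hipk1 was level. Hipk2, a kinase of p53 and of transcriptional corepressors, measured 10.2 FPKM (9.73 to 10.7, 1805 fragments) in wild type and 14.0 FPKM (13.4 to 14.5, 2480 fragments) in the knockout, a ratio of 1.37 (1.29 to 1.46). Hipk3 measured 13.7 FPKM (13.1 to 14.2) and 12.3 FPKM (11.7 to 12.8), a ratio of 0.899 (0.845 to 0.956). Hipk1, which overlaps with Hipk2 in function during mouse development, measured 11.4 FPKM (10.9 to 11.8) and 11.1 FPKM (10.7 to 11.5). Hipk4, a kinase of developing sperm, had 35 fragments in wild type and 37 in the knockout, at 0.48 and 0.50 FPKM.

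The order of levels among the kinases changed accordingly. In the wild-type library it ran Dyrk1b, Hipk3, Dyrk1a, Dyrk2, Hipk1, Hipk2, Dyrk3, Hipk4 and Dyrk4, and of these neighbours Dyrk2 and Hipk1 did not differ beyond counting error, with a ratio of 1.01 (0.949 to 1.08). In the knockout library, with Gm47434 counted in among the 10 genes, Hipk2 stood in place 2, behind Dyrk1b. Dyrk2 stood in place 8 of the 10, behind Gm47434 and Dyrk3, 2 genes whose levels there did not differ beyond counting error. Dyrk1a and Hipk3 likewise did not, with a ratio of 1.04 (0.983 to 1.11). Hipk2 held 0.747 times the level of Hipk3 (0.701 to 0.795) in wild type and 1.14 times (1.07 to 1.21) in the knockout, a comparison chosen after the values were seen.

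Sums over a family show how much of its transcript pool each kinase held. The 5 Dyrk genes summed to 45.9 FPKM in wild type, with a counting SD of 0.748, and to 35.2 FPKM in the knockout, with a counting SD of 0.676. Dyrk2 held 25.1% of the wild-type sum and 5.49% of the knockout sum. Without Dyrk2, the other 4 summed to 34.4 FPKM in wild type and 33.2 FPKM in the knockout. The 4 Hipk genes summed to 35.7 and 37.8 FPKM, and the share of Hipk2 was 28.6% in wild type and 36.9% in the knockout.

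**Figure D2:**
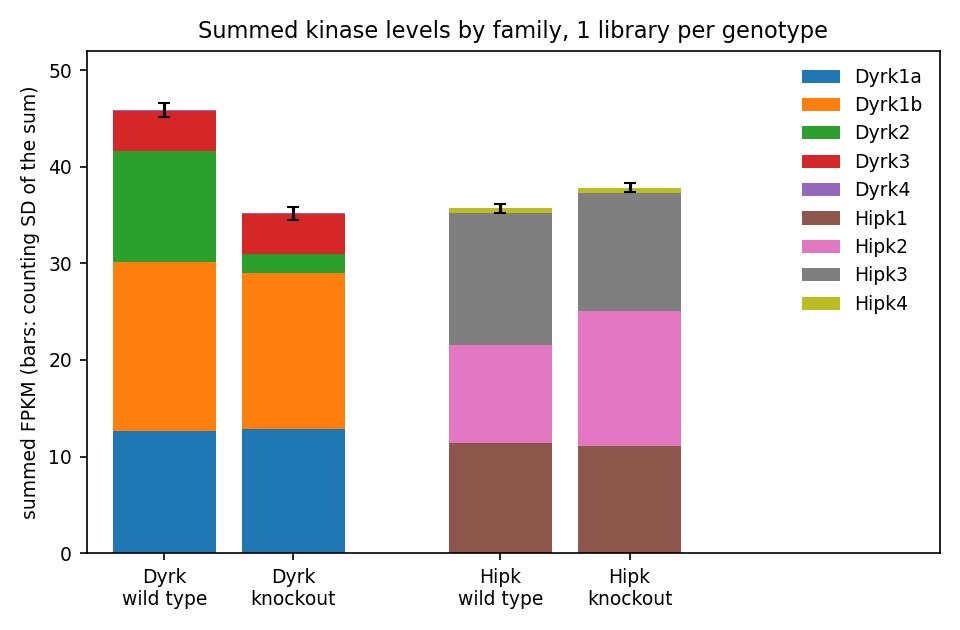
Summed FPKM of the Dyrk genes and of the Hipk genes in each library, stacked by gene, with error bars for the counting SD of the sum. The Dyrk stack is 45.9 FPKM in wild type and 35.2 FPKM in the knockout and differs mainly in its Dyrk2 segment, while the Hipk stacks are 35.7 and 37.8 FPKM.

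Counts past a fold threshold use the log2 ratio of knockout over wild type after 0.5 FPKM is added to both values. By this measure 1 member, Gm47434, was at least 1.5-fold higher and 1 member, Dyrk2, at least 1.5-fold lower, where 2.06% and 4.56% of the 14000 genes compared were. Both were chosen from this same contrast, so nothing is read from that count. None of the 6 other kinases above 1 FPKM reached 1.5-fold. Their log2 ratios ran from -0.15 for Hipk3 to 0.43 for Hipk2 with a median of -0.02, the same as the median of -0.02 over all genes compared. The counting interval of the ratio lay above 1 for 1 of the 7 kinases, Hipk2, and below 1 for 2, Dyrk2 and Hipk3. Over all genes compared it lay above 1 for 17.7% and below 1 for 22.3%, so at this depth an interval clear of 1 is common.

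Hipk2 was therefore the kinase other than Dyrk2 that was furthest from equality. A log2 ratio at least as high was found for 3.34% of all genes compared, and for 1.29% of those that reached 5 FPKM. Several other measurements moved in the same comparison, and their part in the value of Hipk2 was not tested. Of 7 neuronal markers, 5 had intervals above 1 and 2 below 1, against 17.7% and 22.3% of all genes compared. Tubb3, a neuronal tubulin, measured 15.9 FPKM in wild type and 23.1 FPKM in the knockout. The summed level of the 7 was 90.6 FPKM in wild type and 76.9 FPKM in the knockout, with the neurofilament genes Nefl and Nefm lower, at 49.99 and 34.0 FPKM and at 16.8 and 9.19 FPKM. The 11 mesenchyme markers summed to 127 and 75.4 FPKM, but they split, with 5 at least 1.5-fold lower, among them Tcf21 at 0 in the knockout, and 3 at least 1.5-fold higher, Alx1, Alx4 and Prrx1. Over all genes compared, 4.56% were at least 1.5-fold lower and 2.06% higher. The 5 markers of pericytes and smooth muscle summed to 93.02 and 59.3 FPKM, with 2 at least 1.5-fold lower. These were Acta2 at 25.65 and 1.58 FPKM and Tagln at 9.34 and 2.38 FPKM, while Notch3 measured 48.12 and 48 FPKM. The 5 endothelial markers summed to 58.3 and 64.7 FPKM, and the 6 markers of hypothalamus and infundibulum to 124.7 and 122.8 FPKM. The 6 erythroid markers summed to 2266 and 1743 FPKM and the 5 oral epithelium markers to 3.40 and 5.99 FPKM. Of these 5 oral epithelium markers, 2 passed 1 FPKM. Xist, transcribed in female cells, measured 74.98 FPKM in wild type and 14.8 FPKM in the knockout, and the Y-linked gene Ddx3y 5.83 and 14.95 FPKM, so RNA of both sexes was in each library in unequal parts. No other listed marker was at 0 in either library.

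The Dyrk and Hipk families belong to the CMGC group of kinases, with the cyclin-dependent, MAP, Gsk3 and Clk kinases. Of 53 other listed CMGC genes, 49 passed 1 FPKM, 47 of these lay within 1.5-fold, 0 were at least that much higher and 2 at least that much lower, against 2.06% and 4.56% of all genes compared. The 2 were Mapk15, an atypical MAP kinase known to act in ciliogenesis, at 1.19 FPKM in wild type and 0.35 FPKM in the knockout, and Cdkl2, a cyclin-dependent kinase-like gene, at 2.29 and 1.26 FPKM. They rest on 61 and 18 fragments and on 278 and 154 fragments. The most abundant of the list were Cdk4, a kinase of the G1 phase, at 230.2 and 243.5 FPKM, Gsk3a, a glycogen synthase kinase, at 42.8 and 42.7 FPKM and Cdk16 at 42.5 and 40.7 FPKM. The median log2 ratio of the 49 was -0.06, their highest was 0.28, and so 0 of the 49 had a ratio above that of Hipk2. Of all genes compared, 3.34% had a log2 ratio at or above that of Hipk2, so nothing is read from that 0.

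**Figure D3:**
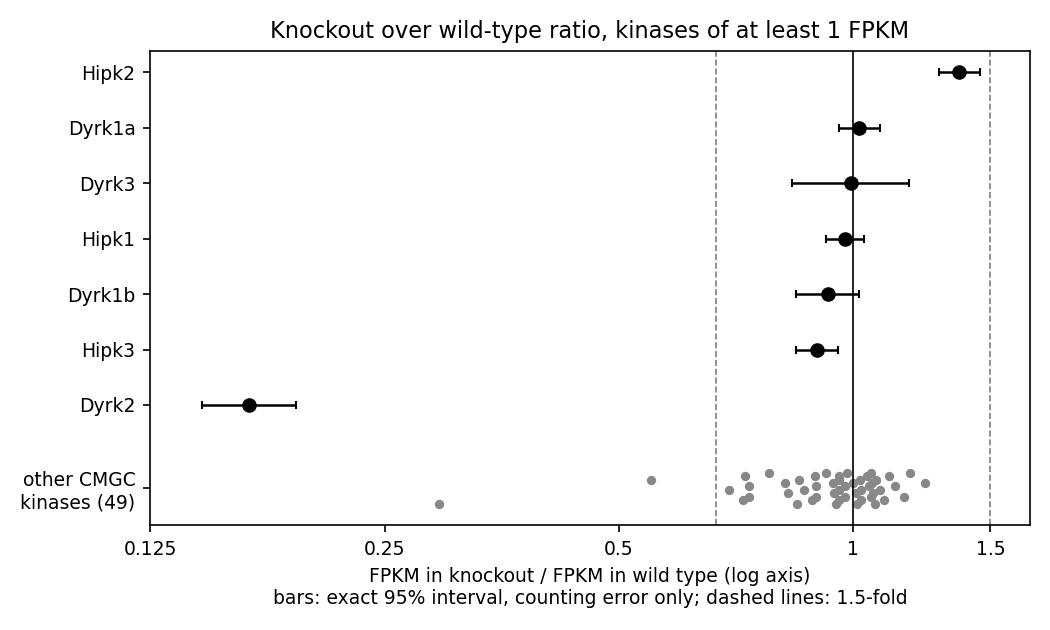
Ratio of knockout to wild-type FPKM on a log axis for the 7 Dyrk and Hipk kinases above 1 FPKM (black, with exact 95% intervals of counting error) and for 49 other CMGC kinases (grey, no intervals drawn). Dashed lines mark 1.5-fold. Dyrk2 lies at 0.168, Hipk2 at 1.37, and the 5 other kinases between 0.899 and 1.02.

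Genes that work with these kinases were read in further lists and against the whole table, where 2.06% of genes were at least 1.5-fold higher and 4.56% lower, so lying within 1.5-fold is the usual case. Dcaf7, a scaffold that binds Dyrk1 and Hipk kinases, measured 67.6 FPKM in wild type and 71.1 FPKM in the knockout. The DREAM complex represses cell cycle genes once Dyrk1a has phosphorylated its subunit Lin52. Of the 12 genes listed for it, all 12 passed 1 FPKM and all 12 lay within 1.5-fold, with a median log2 ratio of 0.01. The list includes Mybl2, whose place in the complex was not checked. Lin52 itself measured 4.94 and 4.96 FPKM. The most abundant were Rbbp4, a histone-binding subunit, at 47.8 and 49.9 FPKM, Tfdp1, the partner of E2f factors, at 42.0 and 46.9 FPKM, and the repressive E2f factor E2f4 at 35.1 and 37.4 FPKM.

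Of 11 genes of NFAT and calcineurin, the axis in which Dyrk1a opposes the phosphatase calcineurin, 9 passed 1 FPKM and 8 of these lay within 1.5-fold. Rcan2, a calcineurin inhibitor, was higher in the knockout library, at 1.73 FPKM (152 fragments) in wild type and 2.85 FPKM (251 fragments) in the knockout, a ratio of 1.65 (1.34 to 2.03). Nfatc4, the most abundant NFAT factor, measured 37.9 and 28.2 FPKM, Ppp3r1, the regulatory subunit of calcineurin, 31.7 and 30.03 FPKM, and Rcan1, another inhibitor, 17.0 and 18.8 FPKM. The median log2 ratio was -0.05.

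All 18 listed partners and regulators of Hipk kinases passed 1 FPKM and lay within 1.5-fold, with a median log2 ratio of -0.01. Ctbp1, a corepressor that Hipk2 phosphorylates, measured 92.7 and 95.5 FPKM. Wsb1, a ubiquitin ligase subunit that directs Hipk2 to degradation, measured 50.1 FPKM in wild type and 38.1 FPKM in the knockout, a ratio of 0.761 (0.725 to 0.798). In this list the counting interval of the ratio lay below 1 for 4 genes, Wsb1 among them, and above 1 for 2. The relation of any of these transcripts to that of Hipk2 was not tested.

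The surroundings of Dyrk2 on chromosome 10 were read gene by gene. Within 1 Mb of its span the tables hold 53 other genes, of which 17 had at least 1 fragment and 4 passed 1 FPKM. The protein-coding genes among the 4 lay within 1.5-fold: Mdm1, a microtubule-binding protein of centrioles, measured 11.1 FPKM in wild type and 9.95 FPKM in the knockout, Cand1, an exchange factor of cullin ligases, 34.2 and 38.1 FPKM, and Grip1, a scaffold of glutamate receptors, 3.64 and 4.02 FPKM. The fourth was Gm47434.

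Gm47434 had 0 fragments in the wild-type library, where a floor of 3 fragments equals 0.0594 FPKM, and 218 fragments in the knockout library, or 4.30 FPKM (3.75 to 4.91). That knockout level was 72.4 times the floor, and the lower counting limit of the ratio was 58.4-fold. Its level in the knockout library was 2.23 times that of Dyrk2 there and equalled 37.3% of the wild-type level of Dyrk2. Of all 55401 genes it was the only 1 with no fragment in wild type and at least 100 in the knockout (0.00181%). The next had 49. Gm47434 was chosen because it had been seen in the knockout library only, so nothing is read from this rank.

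A pair of long non-coding genes further along shared its pattern at lower levels, and they were singled out after their values were seen. Gm4065, at chr10:118803719-118805290, lies 50.3 kb beyond the 3′ end of Dyrk2, and Gm47425, at chr10:118718146-118719428, lies 136 kb beyond it. Gm4065 had 0 fragments in wild type and 8 in the knockout, at 0.27 FPKM (0.117 to 0.533). Gm47425 had 0 and 18, at 0.82 FPKM (0.484 to 1.29). Against a floor of 3 fragments in the wild-type library they were 2.66-fold and 5.98-fold higher. The lower counting limits of the ratio were 1.70-fold and 4.38-fold. Their knockout levels were 6.28% and 19.1% of that of Gm47434. The FPKM intervals of Gm4065 and Gm47425 overlap, so no order of level with distance from Dyrk2 is read from them.

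All 3 lie on the strand of Dyrk2 and beyond its 3′ end. Of the 17 genes annotated on that strand and side within 1 Mb, 13 were at 0 in both libraries. The 17 together held 1 fragment in wild type and 244 in the knockout. All 244 came from the 3 genes, which were picked for their values, so this sum only restates them. The 11 genes on the opposite strand of the same side held 962 and 873 fragments, and 0 of the 11 was at 0 in wild type with more than 1 fragment in the knockout. Beyond the 5′ end of Dyrk2, 0 of 12 genes on its strand and 0 of 12 on the other showed that pattern. Across the whole transcriptome 20 of 55401 genes (0.0361%) had no fragment in wild type and at least 8 in the knockout, and 3 of the 20 were these, while 35 genes (0.0632%) had the reverse. The minimum of 8 was set after the values were seen.

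**Figure D4:**
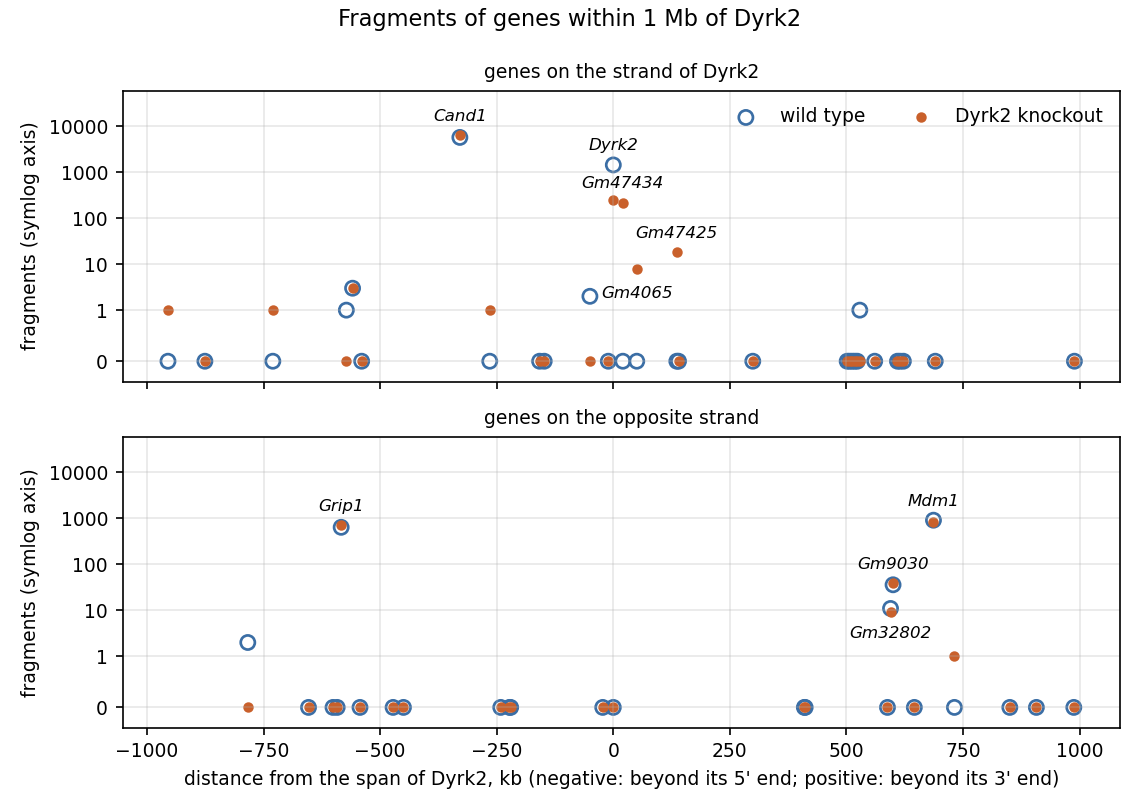
Fragments of the genes within 1 Mb of Dyrk2 in wild type (open blue circles) and in the knockout (orange points), on a symlog axis, against the distance in kb from the span of Dyrk2, with the strand of Dyrk2 above and the opposite strand below. On the strand of Dyrk2 the genes Gm47434, Gm4065 and Gm47425, at 20.5, 50.3 and 136 kb beyond the 3′ end, hold 218, 8 and 18 fragments in the knockout and 0 in wild type. The symbols of Mdm1, Cand1 and Grip1 overlap at this scale, although the counting intervals of the ratio lay below 1 for Mdm1 and above 1 for Cand1.

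Because the libraries were polyA-selected, the annotated 3′ ends of these transcripts were searched for the polyadenylation hexamers AATAAA and ATTAAA in the last 40 bases, on the transcript strand only. The last 30 bases of the transcripts that hold 1 of them are shown 5′ to 3′, with the hexamer in capitals, from chr10:118832588-118832617 and chr10:118803719-118803748 on the minus strand.
Gm47434: atcagaccggATTAAAtttcttaaaatatt
Gm4065: tatacttAATAAActcctttgaaaccgaaa
The main Dyrk2 transcript holds AATAAA there as well, starting 24 bases from its end, and Gm47425 holds neither. Of all 141767 GENCODE M21 transcripts, 32.6% hold either hexamer in that window. Gm47434 is a single exon of 2519 bases with no annotated splice site, so spliced and unspliced RNA cannot be told apart there.

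How far similar genes could share fragments was gauged from the transcripts. Of the distinct stretches of 31 bases in each member's transcripts, at most 0.121% occurred in another of these genes, the highest share being that of Gm47434. Stretches that also occur in transcripts of genes outside the family, on either strand, made up 6.18% for Hipk1, 4.99% for Hipk2, 4.80% for Dyrk2, 0.89% for Gm47434 and under 1% for the other kinases. The share of Dyrk2 takes in the 328 bases that 4932442E05Rik covers on the opposite strand, which is the same locus rather than a similar gene. Copies outside annotated transcripts were not searched.

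Genes with similar levels in both libraries were sought for Dyrk2 and Gm47434. By distance in the plane of the 2 log2 levels with 0.5 FPKM added, over 2 libraries, the 3 protein-coding genes nearest to Dyrk2 were Tagln, an actin-binding gene of smooth muscle, at 9.34 and 2.38 FPKM, Chgb, a granin of secretory granules, at 8.79 and 2.18 FPKM and Vegfd, a ligand of lymphatic vessel growth, at 9.63 and 1.32 FPKM. The 3 nearest to Gm47434 were the craniofacial transcription factors Alx1 at 0.18 and 4.29 FPKM, Osr2 at 0.18 and 2.77 FPKM and Tbx22 at 0.06 and 2.37 FPKM, all with fragments in the wild-type library. With 2 points per gene this likeness says only that both levels were similar.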

How the data were processed

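The authors deposited 1 table per library with the Ensembl gene identifier, the summed exon length and the FPKM, per the file headers. The submitters' processing notes name cutadapt 1.9.1, HISAT2 2.0.1 and GRCm38. The counting tool, its use of strand and the annotation release are not stated in these sources. FPKM were scaled to the fragments counted in genes, so an abundant transcript can shift all others. Fragments were recovered as the totals that make FPKM times exon length whole: each of the 1512 wild-type and 1372 knockout values with rounding error below 0.05 and no more than 100 fragments came within 0.1 of a whole number. In long genes rounding leaves about 1 fragment of doubt. Poisson and Clopper-Pearson intervals, both exact, cover counting error only. No count model was used.

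The comparison covered genes reaching 1 FPKM in either library. Symbols and coordinates came from GENCODE M21, which matched 55141 of 55401 genes. The members, lists and rules were chosen with earlier results of these data known. Named genes were the 10 members and genes above 1 FPKM within 1 Mb of Dyrk2. Of each pathway list, those past 1.5-fold and the 3 most abundant were named. Dcaf7, Lin52, Mybl2, single markers and genes stated as such were named beside this rule. The values of 1 gene of a pathway list that the rule covers are not reported here. Alternatives were other pseudocounts, filters, scalings and a wider window. The steps were tested on simulated counts. Python 3.11.15, scipy 1.17.1 and Biopython 1.88 were used.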

Additional observations from a re-analysis of the deposited data

How the results depend on the processing

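No paired analysis was possible because each genotype has a single library, and no replicate could be left out. Of 136 values recomputed under the alternatives, 124 stayed within their counting interval or within 1.5 times the count, and none with a counting interval clear of 1 changed sign. The log2 ratio of Dyrk3, -0.01, turned to 0.02 under both the trimmed-mean and the upper-quartile scaling. The 3 scalings multiplied the knockout values by 0.999 to 1.02 and moved none past those limits. The log2 ratio of Dyrk2, -2.31 with 0.5 FPKM added, was -2.52 with 0.1 FPKM and -1.78 with 2 FPKM, and that of Gm47434, 3.26, was 5.46 and 1.66. With a filter of 5 FPKM, Gm47434 was not compared, so 0 members and 0 genes around Dyrk2 were 1.5-fold higher. Without a filter 3 genes around Dyrk2 were, with Gm4065 and Gm47425 added. With a window of 2 Mb there were 2, the other being Irak3 at 0.30 and 1.41 FPKM. The 2 lower CMGC kinases and the higher Rcan2 fell to 0 and 0 genes both with a filter of 5 FPKM and with 2 FPKM added. These values describe 2 libraries: no difference between embryos, dissections or library preparations can be separated from genotype, Dyrk4 and Hipk4 were counted too rarely to compare, and the deposited values do not say where on a gene its fragments lie.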
